A study of Homo sapiens with 12 samples.

Results

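The comparison described here is of SK-OV-3 cultures that received BMP2 and DM together with cultures that received only PBS. The line, SK-OV-3, was derived from a human ovarian carcinoma and is widely used. The samples were chosen by their labels: 3 arrays of cells given recombinant BMP2 at 100 ng/ml plus DM at 5 µM, and 3 arrays of cells given PBS, which make 6 of the 12 arrays of the series. The other 6 arrays are 3 of BMP2 alone at 100 ng/ml and 3 of DM alone at 5 µM, and they serve here to show which of the single responses were still present when both agents were given. Each array is labelled a biological replicate of its treatment, and the time is 24 h. DM is a compound that the labels name by these letters only. No genotype, transgene or host is involved, and every array is of the same line, so the results are those of 1 cell line at 1 dose and 1 time.

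BMP2 is a secreted ligand that assembles type I and type II serine/threonine kinase receptors; the activated receptors phosphorylate SMAD1, SMAD5 and SMAD9, which enter the nucleus with SMAD4 and induce genes such as the ID genes and the inhibitory SMADs. A separate programme, the amino acid response, runs through the transcription factor ATF4, whose translation rises when cells are short of amino acids or meet other stresses, and which induces enzymes, transporters and aminoacyl-tRNA synthetases that restore the amino acid supply. ERK signalling in turn induces immediate early factors such as EGR1, together with phosphatases and Sprouty proteins that dampen it. In ovarian cancer cells, as in many other cell types, the ID genes are a common readout of BMP signalling.

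Several genes of the amino acid response rose with both agents, so the stretch of promoter that holds the core of the amino acid response element is shown for 6 of them. Each line is read from the RefSeq promoter table (GRCh38.p14), runs 5′ to 3′ on the strand of the gene, and carries the core, TGATGNAA or its reverse complement TTNCATCA, in capitals.
ASNS: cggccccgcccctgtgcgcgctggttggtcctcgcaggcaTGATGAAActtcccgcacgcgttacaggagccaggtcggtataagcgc
CHAC1: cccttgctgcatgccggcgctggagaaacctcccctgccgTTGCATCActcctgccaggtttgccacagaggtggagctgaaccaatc
CEBPG: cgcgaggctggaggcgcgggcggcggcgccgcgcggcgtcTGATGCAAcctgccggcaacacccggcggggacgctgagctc
SLC1A5: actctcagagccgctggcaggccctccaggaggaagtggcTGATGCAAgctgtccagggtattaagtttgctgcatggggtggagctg
AARS1: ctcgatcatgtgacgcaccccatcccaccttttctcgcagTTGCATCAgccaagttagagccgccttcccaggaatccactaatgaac
GOT1: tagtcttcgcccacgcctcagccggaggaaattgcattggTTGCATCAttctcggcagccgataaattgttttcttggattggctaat
These stretches lie upstream of the annotated start: ASNS at chr7:97872429-97872516 on the minus strand, CHAC1 at chr15:40953222-40953309 on the plus strand, CEBPG at chr19:33374031-33374112 on the plus strand, SLC1A5 at chr19:46784864-46784951 on the minus strand, AARS1 at chr16:70289646-70289733 on the minus strand and GOT1 at chr10:99430775-99430862 on the minus strand. The core began 68 bases upstream of the start in ASNS, 209 in CHAC1, 42 in CEBPG, 97 in SLC1A5, 187 in AARS1 and 198 in GOT1. EGR1 is shown as the immediate early gene with the largest rise, with both matches to the CArG box, the site of serum response factor, in capitals.
EGR1: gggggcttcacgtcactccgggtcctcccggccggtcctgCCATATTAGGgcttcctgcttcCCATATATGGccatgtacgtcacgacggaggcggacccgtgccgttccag
This stretch is chr5:138465334-138465445 on the plus strand, and the matches begin 105 and 83 bases upstream of the start.

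The windows searched ran from 250 bases before to 50 bases after each start, on both strands. The core of the amino acid response element was present for 1217 of all 27305 genes with a promoter in the table (4.46%) and for 292 of the 10286 tested genes with a promoter (2.84%). Of the aminoacyl-tRNA synthetase genes that rose with both agents, 6 of the 8 with a promoter in the table held it, and of the whole synthetase list 6 of 14. The core was found for 5 of 8 amino acid transporter genes, 4 of 15 ATF4 regulators and stress effectors and 2 of 9 amino acid enzymes, the last being ASNS and GOT1. Among the genes of these lists that rose, it was found for 2 of 3, 2 of 5 and 2 of 6. Genes not called with both agents, such as ATF3 and SPRED2, also held it. A CArG box was present for 438 of all genes (1.6%) and for 1 of 8 immediate early factors, EGR1. A match describes the letters of the window and not a bound site.

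The arrays were alike in scale and held no clear outlier among the 6 compared. The trimmed mean signal was 495.8 to 496.1 on the 12 arrays, the median 86.7 to 107 on the PBS arrays and 96.8 to 99.4 on the BMP2+DM arrays, and an array's mean correlation with the others of its group was 0.952 to 0.954 for PBS and 0.953 to 0.956 for BMP2+DM. With 3 arrays a group, precision is limited by their number. The receptor gene ERBB2, which this line amplifies, and the lineage factor PAX8 were bright in both groups, with geometric mean signals of 10896 and 5172 with PBS and 12855 and 6044 with both agents, and neither was called. Among markers of other cell types, the filter on dim genes was passed by 4 of 6 for mesothelium, 2 of 6 for leukocytes on the array, 2 of 10 for fibroblasts and 1 of 8 for endothelium, and 0 of them were called by limma or had an unadjusted p under 0.05. Signals were summed over only the members of each list that passed the filter, which for endothelium was PECAM1 alone. These sums overlapped between PBS and both agents. They were 209 to 330 and 165 to 457 for endothelium, and 394 to 593 and 371 to 844 for fibroblasts. For leukocytes they were 517 to 876 and 347 to 673, and for mesothelium 1411 to 1700 and 1358 to 1608. No marker was at 0, and single dim markers went either way: the endothelial gene CDH5 had geometric mean signals of 16.2 with PBS and 13.4 with both agents, VWF 73.8 and 45.2, KDR 31.0 and 84.0, and PECAM1 246 and 305, where the filter signal was 69.8. In a bulk measurement fewer expressing cells and less RNA per cell cannot be told apart.

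Cells given both agents differed from PBS in 519 of the 12674 genes tested, or 4.09%, with 305 higher (2.41%) and 214 lower (1.69%). Here and below, called means an adjusted p under 0.05 (Benjamini-Hochberg, limma fit over all genes), and 2367 genes had an unadjusted p under 0.05. At least a 2-fold change was reached by 73 of the called genes, 44 higher and 29 lower. The 3 BMP2+DM arrays lay wholly above or below the 3 PBS arrays for 517 of the 519, against 25.8% of all genes tested. Each value below is a log2 difference from PBS with its standard error from this fit (n = 3 and 3), and the adjusted p is from the same limma fit. The median difference over all genes was 0.05. Without PBS replicate 1, 2 or 3 the number called was 342, 343 or 320, and without BMP2+DM replicate 2 or 3 it was 277 or 269. Of the 81 named genes that were called, 35 lost the call when each gene's probe sets were averaged and 27 when the variance had no intensity trend. An average took in all probe sets of a gene, also those below the filter. HERPUD1 and SMAD9, for instance, each had 2 probe sets, of which 1 was above the filter. Only 148 genes, named by the rules given in the processing section, were followed through the alternatives. Other genes reported below, such as CEBPB, MTHFD2, GOT1, DUSP5, PLAU and SAT1, were not followed, so the stability of their calls is not known. Of the followed genes named below, the fit on averaged probe sets ended the calls of AGR2, ASNS, CARS1, CCDC157, CCND1, CDT1, CXCL2, CXCR4, DUSP1, ESCO2, GASK1B, HAS3, HERPUD1, ID3, ID4, IL1A, JUN, KIF23, KRT7, MSX1, PHLDA2, PTGIS, RASEF, SLC35C1, SMAD9, SMURF2, SQSTM1, TAGLN, TPM1, TXNRD1, VIM and YARS1. ID3 had 1 probe set, so its value stayed at -1.33 and its call was lost in the refit alone. The model without a trend ended those of AMIGO2, CCDC157, CCND1, CDT1, CHAC1, CXCR4, FN1, FXYD6, HMGN2P46, ID3, ID4, IER3, IGFBP3, KIF23, MT1H, MT1X, MT2A, NUSAP1, PTGIS, SLC7A5, SOD2, SQSTM1, TAGLN, TXNRD1 and VIM. Median centring ended those of CDT1, IER3, KIF23, MT2A, NUSAP1, PTGIS, SMAD5, SMURF2, SQSTM1 and TXNRD1.

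Among genes whose mean passed the filter in both groups, the 3 largest rises were of NUPR1, CHAC1 and ASNS, all of stress and amino acid metabolism. The largest fitted value of all was that of ITPKB, an inositol trisphosphate kinase, with signals of 13.0, 25.9 and 4.72 with PBS and 111, 149 and 167 with both agents (adjusted p = 0.00628); its PBS arrays lay below the filter, so no fold is given. NUPR1, a small chromatin protein induced by stress, had signals of 336, 384 and 385 on the PBS arrays and 2915, 2264 and 2412 on the BMP2+DM arrays. All BMP2+DM arrays were thus far above all PBS arrays, a rise of 6.84-fold (2.77 ± 0.23, adjusted p = 1.71e-06). ASNS, the enzyme that makes asparagine, was at 594, 663 and 675 with PBS and at 4096, 3432 and 4141 with both agents. It rose 6.03-fold (2.59 ± 0.13, adjusted p = 1.83e-09) with no overlap of the groups. Averaged over its probe sets, ASNS had 0.75, not called. CHAC1, an enzyme that degrades glutathione, was near the filter with PBS at 90.5, 44.9 and 85.1 and clearly measured with both agents at 588, 405 and 433. Its rise was 2.74 ± 0.55 (adjusted p = 0.00764), a call lost when the variance was modelled without an intensity trend.

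**Figure D1:**
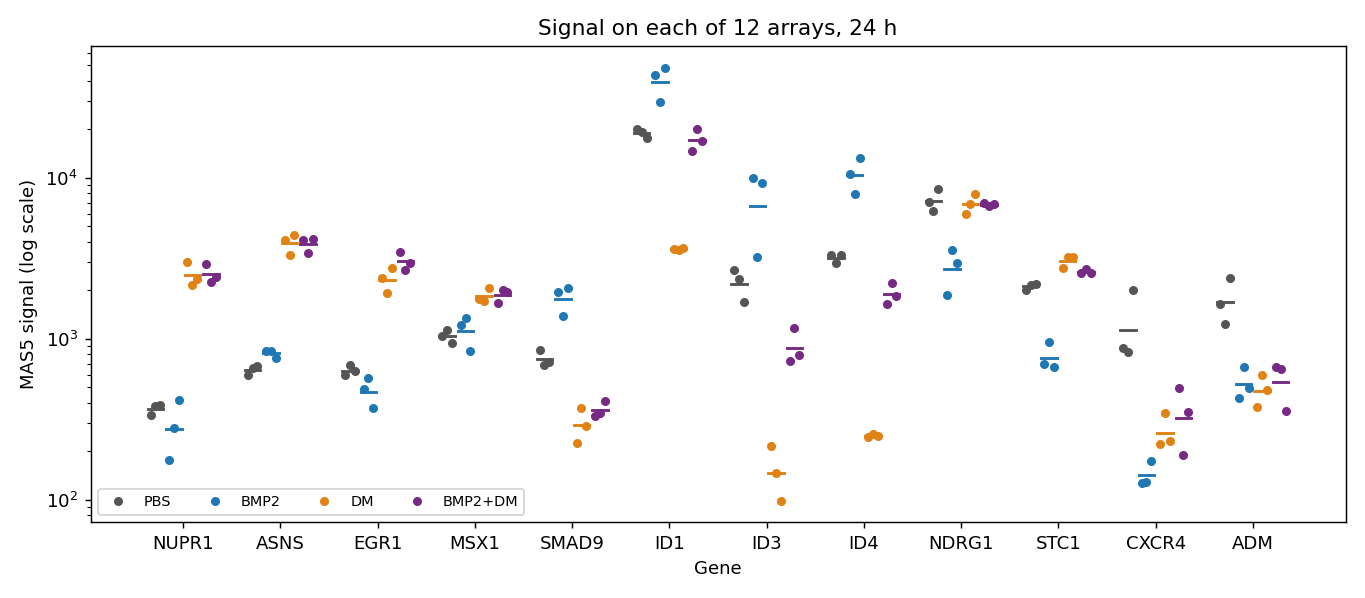
Signal of 12 genes on each of the 12 arrays, on a logarithmic axis of MAS5 signal; points are single arrays coloured by treatment and bars are geometric means of 3 arrays. With both agents NUPR1, ASNS, EGR1 and MSX1 sit at or above the level of DM alone, ID1 sits at the level of PBS between BMP2 and DM alone, SMAD9, ID3 and ID4 sit below PBS, NDRG1 overlaps PBS, and CXCR4 and ADM stay low as with either agent.

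Of 17 measured ATF4 regulators and stress effectors 6 rose, none fell and 11 were not called, with a list median of 0.53. ATF4 itself had 8292, 7868 and 7932 with PBS and 20591, 19161 and 18839 with both agents, a rise of 1.28 ± 0.11 (2.43-fold, adjusted p = 2.21e-06) with widely separated groups. TRIB3, a pseudokinase that restrains ATF4, went from 815, 711 and 989 to 3298, 2181 and 2439 and rose 3.13-fold. CEBPG, a dimer partner of ATF4, rose by 0.71 ± 0.13, and CEBPB, another member of that family, by 0.38 ± 0.10. DDIT3 and ATF3, stress factors downstream of ATF4, had 0.48 ± 0.21 and 0.17 ± 0.31, and SESN2 and STC2 had 1.34 ± 0.58 and 1.39 ± 0.63; none of these 4 was called. NDRG1 was the only member of the 17 with a negative value, -0.08 ± 0.17.

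Of 12 measured amino acid synthesis and one-carbon genes 8 rose, none fell and 4 were not called, with a median of 0.94. PHGDH, which commits glucose carbon to serine, had 546, 930 and 653 with PBS and 2822, 2838 and 2782 with both agents. The BMP2+DM arrays were nearly equal to each other and 4.07-fold above PBS (2.02 ± 0.20, adjusted p = 1.23e-05). PSAT1, the next enzyme of that path, went from 6912, 6427 and 6555 to 21164, 17277 and 21190 and rose 2.99-fold. SHMT2 and MTHFD2, the mitochondrial folate enzymes, rose by 1.24 ± 0.14 and 0.85 ± 0.10. CBS rose by 1.07 ± 0.22, PYCR1 of proline synthesis by 1.02 ± 0.26 and the aspartate aminotransferase GOT1 by 0.72 ± 0.18. PSPH, the last enzyme of serine synthesis, had 0.43 ± 0.15 and was not called.

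Of 9 measured amino acid transporters 3 rose and none fell, with a median of 0.41: SLC1A5, a glutamine carrier, had 484, 535 and 503 with PBS and 1112, 1064 and 927 with both agents and rose 2.03-fold, and SLC7A5 and its heavy chain partner SLC3A2 rose by 0.87 ± 0.16 and 0.86 ± 0.12. Of 17 cytosolic aminoacyl-tRNA synthetases 10 rose, none fell and 7 were not called, with a median of 0.46. WARS1, which charges tryptophan, went from 1727, 1816 and 1620 to 5302, 5100 and 5740, a rise of 3.13-fold (adjusted p = 3.62e-07), and SARS1, which charges serine, from 4467, 4470 and 4216 to 9762, 9811 and 11321, a rise of 2.34-fold. In both genes every array with both agents was at least double the PBS range. YARS1, CARS1, GARS1, VARS1 and AARS1 rose by 0.60 to 0.99, and IARS1, TARS1 and NARS1 by 0.34 to 0.46. LARS1, RARS1, HARS1 and KARS1 had values from -0.11 to 0.05 and were not called.

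**Figure D2:**
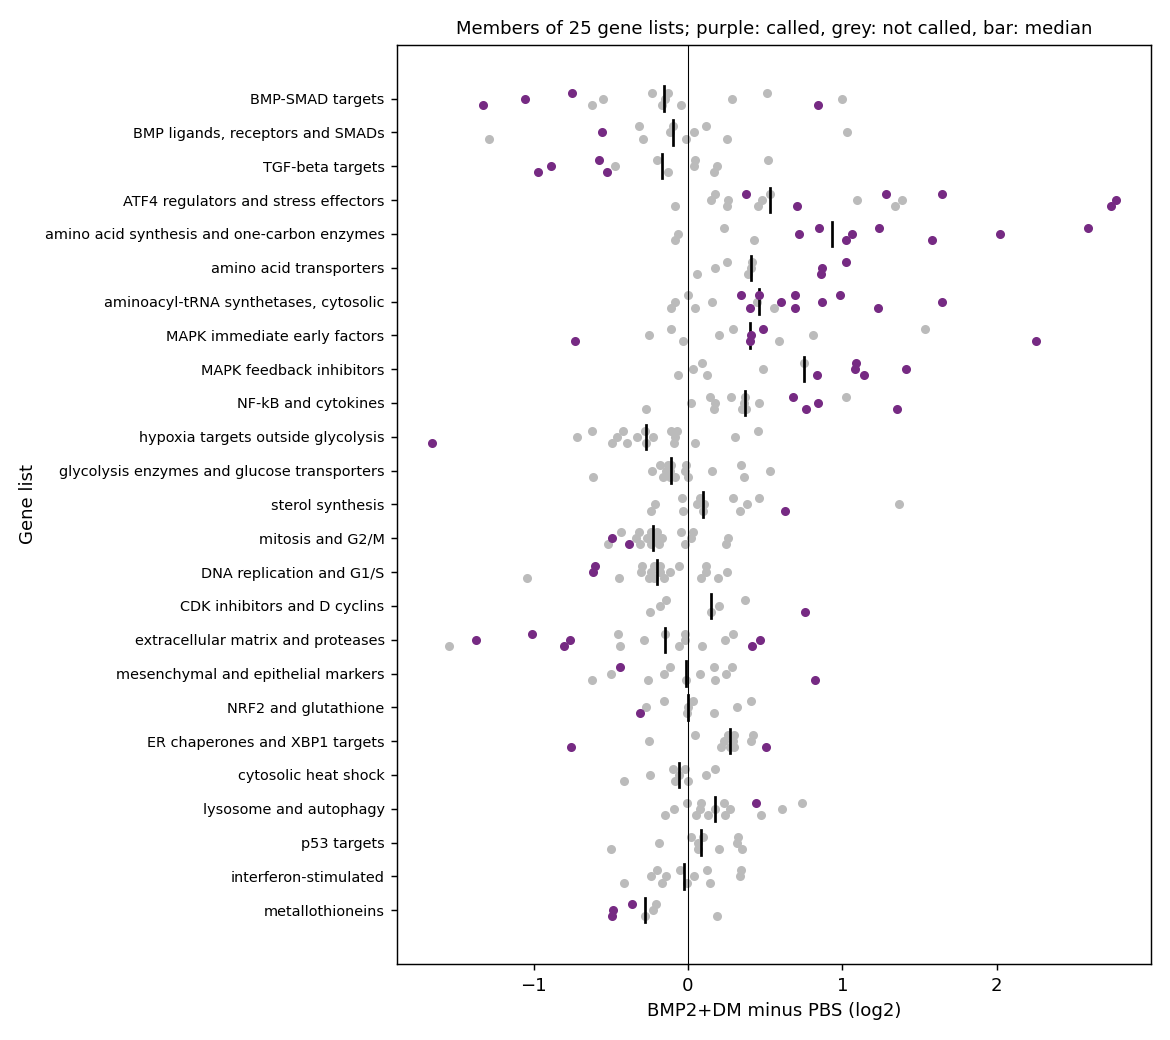
Difference between BMP2+DM and PBS, in log2 units, for every measured member of 25 gene lists; each point is 1 gene, purple where called and grey where not, and the black bar is the list's median. The amino acid, synthetase, MAPK feedback and cytokine lists lie mostly to the right of 0 (medians 0.37 to 0.94), while the BMP-SMAD, TGF-beta, mitosis and metallothionein lists lie mostly to the left (medians -0.28 to -0.16).

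Some immediate early and feedback genes of ERK signalling rose. EGR1, an immediate early zinc finger factor, had 595, 685 and 626 with PBS and 3481, 2695 and 2953 with both agents. It rose 4.77-fold (2.25 ± 0.17, adjusted p = 3.62e-07), and all 3 of its probe sets above the filter were called. PHLDA1, IER2 and IER3 rose by 0.49 ± 0.07, 0.41 ± 0.09 and 0.40 ± 0.08, whereas JUN, a component of AP-1, fell by 0.73 ± 0.14, so that of 13 measured immediate early factors 4 rose, 1 fell and 8 were not called (median 0.40). FOS had 306, 326 and 219 with PBS and 898, 856 and 690 with both agents; the groups did not overlap, but its value of 1.53 ± 0.45 was not called (adjusted p = 0.0658).

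Of 11 measured MAPK feedback inhibitors 5 rose and none fell, with a median of 0.75. DUSP4, a nuclear MAP kinase phosphatase, had 400, 427 and 578 with PBS and 1467, 1255 and 1016 with both agents, a rise of 2.67-fold (adjusted p = 0.000253). The level with DM alone was higher still, at 2394, 2219 and 3099, but the difference between both agents and DM was not called (-1.05 ± 0.19, adjusted p = 0.0618). DUSP6, which acts on ERK, went from 1002, 834 and 664 to 1866, 1806 and 1763 and rose 2.20-fold. The Sprouty gene SPRY2 went from 896, 806 and 868 to 1932, 1747 and 1756 and rose 2.11-fold. DUSP1 and DUSP5 rose by 1.09 ± 0.11 and 0.83 ± 0.15, and SPRED1, SPRED2 and DUSP7 had values from -0.07 to 0.12.

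Of 16 measured NF-kB and cytokine genes 4 rose, none fell and 12 were not called (median 0.37). The cytokine gene IL6 had 896, 1130 and 1023 with PBS and 2753, 2363 and 2657 with both agents, a rise of 2.56-fold (adjusted p = 1.23e-05) with the groups well apart. The chemokine genes CXCL8 and CXCL2 rose by 0.84 ± 0.08 and 0.77 ± 0.09, and IL1A by 0.68 ± 0.11. Averaged over their probe sets, IL1A had 0.04 and CXCL2 0.98, neither called. NFKBIA, the inhibitor induced by NF-kB, had -0.27 ± 0.12, and IL1B had 0.02 ± 0.14.

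Other large rises were of single genes measured at low signal. CCDC157 had 102, 79.7 and 281 with PBS and 612, 531 and 467 with both agents, and FXYD6, a regulator of the sodium pump, went from 87.2, 63.3 and 142 to 225, 349 and 337. IL20RB, a cytokine receptor subunit, went from 139, 73.6 and 128 to 398, 303 and 343. Their groups did not overlap, and they rose by 2.02 ± 0.51, 1.69 ± 0.42 and 1.66 ± 0.38. The calls of these genes were not stable to the arrays used: IL20RB lost its call without PBS replicate 2 or BMP2+DM replicate 1 or 3, FXYD6 without PBS replicate 1 or 2 or BMP2+DM replicate 2 or 3, and CCDC157 without any 1 of the 6 compared arrays other than PBS replicate 3; CCDC157 averaged over its probe sets had -0.07.

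Among called genes with non-overlapping arrays and a mean that passed the filter in both groups, SOD2 and GASK1B had the largest falls. The lowest fitted value of any gene tested was -3.08. SOD2, the mitochondrial superoxide dismutase, was read from the only probe set listing it alone, with signals of 7268, 5308 and 8301 with PBS and 1809, 1354 and 1306 with both agents. That probe set fell 4.64-fold (-2.21 ± 0.44, adjusted p = 0.00683), a call lost without an intensity trend and with a robust variance. The other 4 probe sets listing SOD2 name it beside SOD2-OT1 and gave other values: those with PBS signals of 6882 and 4082 had -0.78 ± 0.16 and -0.65 ± 0.14, the one at 5358 had 0.07 ± 0.14, and a dim one at 68.5 had -0.86 ± 0.91. The size of the SOD2 change therefore depends on the probe set. GASK1B, a Golgi kinase-like protein, went from 803, 623 and 646 to 206, 150 and 200 and fell 3.74-fold (adjusted p = 0.000546), a call lost when its probe sets were averaged (-1.46).

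Further falls reached matrix and secreted products. HAS3, a hyaluronan synthase, went from 3276, 3697 and 3366 to 1064, 1536 and 1265 and fell 2.70-fold (adjusted p = 6.66e-05). CP, which encodes ceruloplasmin, went from 453, 422 and 703 to 202, 179 and 142 and fell 2.97-fold (adjusted p = 0.0106), a call lost without PBS replicate 3 or BMP2+DM replicate 3. AGR2, a secreted disulphide isomerase, went from 653, 624 and 544 to 216, 263 and 269 and fell 2.44-fold (adjusted p = 0.00322). Averaged over their probe sets, HAS3 had -0.64 and AGR2 -0.72, neither called. RASEF, a Rab-family GTPase with EF hands, went from 4225, 4064 and 3873 to 2140, 1228 and 1129 by its brightest probe set and fell 2.82-fold, but its 4 probe sets above the filter ran from -1.53 to 0.72 and their mean was not called. ESCO2, a cohesin acetyltransferase, fell by 1.36 ± 0.26 and had 0.04 averaged over its probe sets. HMGN2P46, a pseudogene, fell by 1.35 ± 0.33. Its probe set may cross-hybridise, which was not tested. The HMGN2P46 call was lost without PBS replicate 1 or 3, without BMP2+DM replicate 2 or 3, and without an intensity trend.

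Of 17 measured extracellular matrix and protease genes 4 fell, 2 rose and 11 were not called (median -0.15). The collagenase gene MMP1 went from 30551, 32609 and 32836 to 17446, 19558 and 19590 and fell 1.70-fold (adjusted p = 8.86e-05). MMP7, matrilysin, went from 5246, 3954 and 5261 to 2448, 1918 and 2830 and fell 2.02-fold (adjusted p = 0.000249). In both genes the groups were apart. THBS1, thrombospondin 1, fell by 1.37 ± 0.28, a call lost without PBS replicate 1, and FN1, fibronectin, fell by 0.80 ± 0.15. The urokinase gene PLAU and its receptor PLAUR rose by 0.47 ± 0.10 and 0.41 ± 0.10. COL8A1 had -1.55 ± 0.78 and was not called.

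The BMP pathway genes themselves were mixed. Of 14 measured BMP-SMAD targets 3 fell, 1 rose and 10 were not called, with a median of -0.16, where the same list had medians of 0.89 with BMP2 alone and -0.40 with DM alone; the 3 comparisons share the PBS arrays. SMAD9, a receptor-regulated SMAD that is also a target of the pathway, had 853, 690 and 716 with PBS and 330, 346 and 411 with both agents. It fell 2.08-fold (-1.06 ± 0.21, adjusted p = 0.00701) with no overlap, where it had 1.24 ± 0.21 with BMP2 alone and -1.37 ± 0.21 with DM alone. MSX1, a homeobox gene, had 1048, 1135 and 947 with PBS and 1660, 2002 and 1949 with both agents. It rose 1.79-fold (0.84 ± 0.16, adjusted p = 0.00524), with 0.10 ± 0.16 under BMP2 alone and 0.83 ± 0.16 under DM alone. Averaged over their probe sets, SMAD9 had -1.36 and MSX1 1.28, neither called.

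The ID genes, which encode helix-loop-helix inhibitors of differentiation factors, came to rest at different places relative to PBS. ID1 had 20001, 19408 and 17605 with PBS, 14697, 20073 and 17054 with both agents, 43294, 29713 and 48430 with BMP2 alone and 3609, 3579 and 3653 with DM alone. The PBS and BMP2+DM arrays overlapped, and the difference was -0.15 with a 95% interval from -0.44 to 0.15; both agents against BMP2 gave -1.21 ± 0.14 and against DM 2.25 ± 0.14, both called (adjusted p = 3.62e-05 and 5.79e-08). ID4 had 3339, 2940 and 3298 with PBS, 1649, 2227 and 1854 with both agents, 10607, 7896 and 13324 with BMP2 alone and 244, 257 and 248 with DM alone. Its BMP2+DM arrays lay below every PBS array and above every DM array, and it fell 1.68-fold from PBS (-0.75 ± 0.16, adjusted p = 0.00916) while standing 2.92 ± 0.16 above DM (adjusted p = 7.96e-09).

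ID3 had 2681, 2362 and 1692 with PBS, 732, 1165 and 799 with both agents, 9909, 3240 and 9251 with BMP2 alone and 217, 146 and 98.8 with DM alone. It showed the order of ID4 and fell 2.51-fold from PBS (-1.33 ± 0.35, adjusted p = 0.0384), but its call was lost without PBS replicate 1 or 2 and without BMP2+DM replicate 1 or 3. Averaged over its probe sets, ID4 had -0.44, not called. ID2 had 1043, 1056 and 1087 with PBS and 719, 755 and 603 with both agents; these did not overlap, but the value of -0.62 ± 0.27 was not called (adjusted p = 0.208), and both agents against DM gave 1.45 ± 0.27 (adjusted p = 0.0618). The 4 genes thus ran from -1.33 to -0.15 against PBS, and ID1 was the only one of them whose interval lay within 1.5-fold of PBS.

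Among the other components, the inhibitory SMAD6 had 522, 551 and 622 with PBS and 471, 517 and 522 with both agents, which differed by -0.16 ± 0.20 and was not called. The 2 SMAD6 probe sets above the filter ran from -0.16 to 0.78 against PBS. Averaged over its probe sets, SMAD6 had 0.35, not called, so the sign of its difference depends on the probe set. SMAD7, the other inhibitory SMAD, had 1276, 1507 and 1286 with PBS and 928, 888 and 957 with both agents; the groups did not overlap, and -0.55 ± 0.17 was not called (adjusted p = 0.0835). The Notch and BMP target HEY1 had 0.29 ± 0.10 and BAMBI, a decoy receptor, 0.51 ± 0.18, neither called. Of 11 measured ligands, receptors and SMADs only SMAD5 was called: it fell by 0.55 ± 0.11, a call lost with median centring and without BMP2+DM replicate 3. SMAD1, SMAD4, BMPR2, ACVR1 and the BMP2 transcript itself had values from -0.12 to 0.12.

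To say which responses to BMP2 alone were still present, the 80 genes called in BMP2 against PBS (0.631% of genes tested) were followed in the cells given both agents. Of these, 15 were called on the same side of PBS with both agents, 11 were called on the other side, 33 were not called and had a 95% interval within 1.5-fold of PBS, and 21 fell in none of these classes. Both comparisons use the same PBS arrays, and of all genes tested 40.7% were not called and had such an interval. The comparison of both agents with BMP2 alone, in which 919 genes were called (7.25%), included 26 of the 33, all 11 of those on the other side, and 1 of the 15. The numbers depend on single arrays: the 33 became 16, 13 and 14 without PBS replicates 1, 2 and 3, 17 without BMP2 replicate 1 and 15 without BMP2 replicate 3, and the 26 called with both agents became 12, 17 and 14 without PBS replicates 1, 2 and 3, and 16 without BMP2 replicate 3 or BMP2+DM replicate 3.

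**Figure D3:**
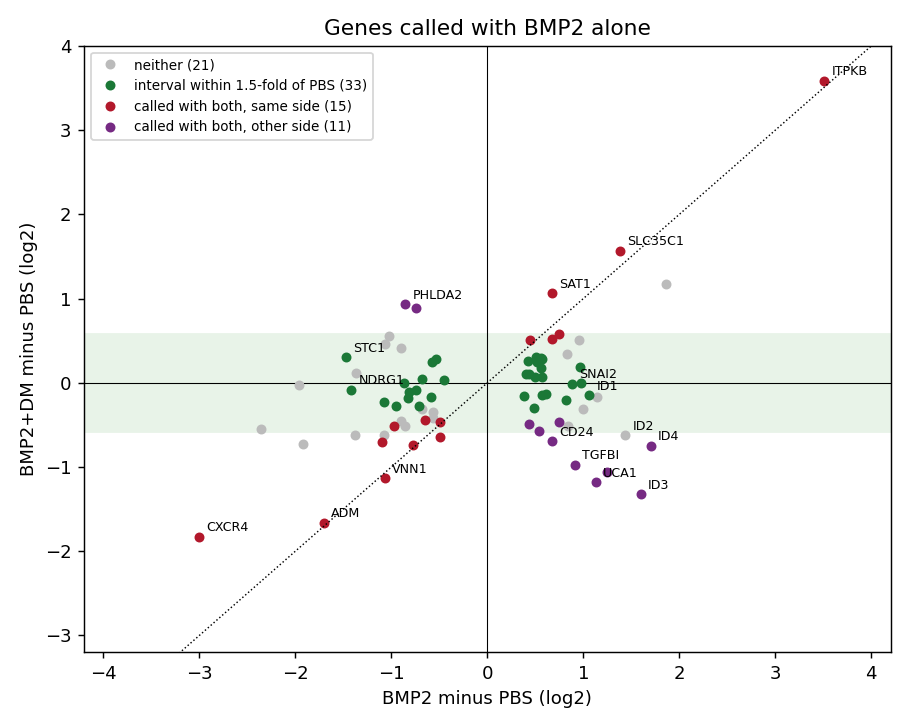
The 80 genes called with BMP2 alone: log2 difference of BMP2 from PBS on the horizontal axis and of BMP2+DM from PBS on the vertical axis. The dotted line marks equal change, the shaded band is within 1.5-fold of PBS, and colours give the 4 classes (15, 11, 33 and 21 genes); both axes share the PBS arrays. ID3, ID4, UCA1 and TGFBI lie to the right of 0 and below the band, NDRG1, STC1, SNAI2 and ID1 lie in it, and CXCR4, ADM and VNN1 stay at the lower left.

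Genes that had fallen with BMP2 and were close to PBS with both agents included several known hypoxia targets. NDRG1, a stress-induced gene, had 7040, 6260 and 8568 with PBS, 1870, 3572 and 2969 with BMP2 and 6932, 6684 and 6859 with both agents. The arrays with both agents lay inside the PBS range and above every BMP2 array; the difference from PBS was -0.08 (95% interval -0.45 to 0.29) and from BMP2 1.33 ± 0.17 (adjusted p = 0.000126). STC1, which encodes the hormone stanniocalcin-1, had 2006, 2172 and 2177 with PBS, 698, 954 and 667 with BMP2 and 2554, 2724 and 2577 with both agents. It stood slightly above all PBS arrays, at 0.31 (95% interval 0.03 to 0.58, not called), and 1.78 ± 0.13 above BMP2 (adjusted p = 1.23e-07). The 3 STC1 probe sets above the filter ran from -0.12 to 0.57 against PBS. With every probe set above the filter fitted, 1 of the 3 was called, so its return to PBS depends on the probe set. VEGFA, the endothelial growth factor, and BNIP3, a mitophagy receptor, had 0.05 ± 0.13 and -0.28 ± 0.14 from PBS and were called higher than with BMP2, by 0.73 ± 0.13 and 0.68 ± 0.14. The 4 VEGFA probe sets ran from -0.21 to 1.02 against PBS, and 0 of them were called. PDZK1IP1 had -0.23 ± 0.15 from PBS and 0.84 ± 0.15 from BMP2, the latter called.

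The hypoxia list as a whole had 1 gene called of 18, ADM, and a median of -0.27, with 8 members at an unadjusted p under 0.05. Of 17 measured glycolysis enzymes and glucose transporters 0 were called by limma and 3 had an unadjusted p under 0.05; HK2, a hexokinase, had -0.61 ± 0.27, ALDOA 0.00 ± 0.09 and GAPDH -0.14 ± 0.11. With both agents 12 of these 17 had a 95% interval within 1.5-fold of PBS, against 41.1% of all genes tested. The summed PBS signal of the 17 was 336675 to 429833. The share among genes of like signal was not counted, so the 2 shares are not a like comparison.

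Genes that had risen with BMP2 and were close to PBS with both agents included regulators of development and stress. SNAI2, a repressor of E-cadherin, had 2928, 2903 and 2640 with PBS, 5978, 4059 and 5759 with BMP2 and 2695, 2953 and 2765 with both agents. The PBS and BMP2+DM arrays overlapped, at -0.01 (95% interval -0.28 to 0.26), and the difference from BMP2 was -0.89 ± 0.13 (adjusted p = 0.000275). DKK1, a secreted Wnt inhibitor, had 1211, 1116 and 1099 with PBS, 2079, 2218 and 2411 with BMP2 and 1394, 1115 and 1418 with both agents, so that its arrays with both agents lay inside or above the PBS range and below every BMP2 array (0.19 ± 0.13 from PBS and -0.78 ± 0.13 from BMP2, adjusted p = 0.000849). HMOX1, haem oxygenase 1, had 473, 615 and 698 with PBS, 1284, 1051 and 1135 with BMP2 and 495, 665 and 617 with both agents, and the difference from BMP2 was -0.97 ± 0.20 (adjusted p = 0.00554).

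On the other side of PBS were 9 genes that had been higher and 2 that had been lower with BMP2. Besides ID3, ID4 and SMAD9, TGFBI, a secreted matrix protein, had 20671, 22675 and 23755 with PBS, 43339, 40040 and 42936 with BMP2 and 10431, 12064 and 11705 with both agents. The 3 groups were fully apart, and TGFBI fell 1.96-fold from PBS (-0.97 ± 0.09, adjusted p = 4.56e-06). The long noncoding RNA UCA1 went from 2338, 2247 and 1811 with PBS to 4940, 3555 and 5653 with BMP2 and 989, 921 and 892 with both agents, a fall of 2.27-fold from PBS (adjusted p = 0.000258). TPM1, a tropomyosin, fell by 0.58 ± 0.08, the surface glycoprotein gene CD24 by 0.70 ± 0.09, AMIGO2 by 0.49 ± 0.09 and PTGIS, prostacyclin synthase, by 0.46 ± 0.11. PTGIS lost its call without PBS replicate 1 or 2 and without BMP2+DM replicate 1 or 3. In the opposite sense, MAL2, a raft protein of transcytosis, had 5938, 5046 and 6151 with PBS, 3014, 4156 and 3154 with BMP2 and 10644, 9858 and 11028 with both agents and rose 1.84-fold, and PHLDA2, an imprinted growth regulator, rose by 0.93 ± 0.14, or 0.19 without a call when its probe sets were averaged.

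Of 12 measured TGF-beta targets 4 fell with both agents and none rose (median -0.16). These were TGFBI, TPM1, SMURF2, a ubiquitin ligase that fell by 0.52 ± 0.10, and the actin-binding protein gene TAGLN, which fell by 0.88 ± 0.22 and lost its call when any of the 6 arrays was left out. PMEPA1, a feedback inhibitor that was called with BMP2, had 0.17 ± 0.12, and CCN2 had -0.20 ± 0.28. Averaged over their probe sets, TPM1 had -0.35 and SMURF2 -0.32, neither called, and SMURF2 also lost its call with median centring.

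Genes on the same side of PBS with BMP2 and with both agents were mostly lower. ADM, which encodes the vasodilator peptide adrenomedullin, had 1643, 1242 and 2398 with PBS, 428, 672 and 495 with BMP2, 378, 596 and 483 with DM and 671, 645 and 358 with both agents. Every treated array was below every PBS array, and ADM fell 3.16-fold with both agents (-1.66 ± 0.27, adjusted p = 0.0017), where BMP2 alone gave -1.70 ± 0.27 and DM alone -1.83 ± 0.27. CXCR4, a chemokine receptor, had 876, 828 and 2020 with PBS, 126, 130 and 175 with BMP2, 223, 345 and 231 with DM and 495, 189 and 350 with both agents. It fell 3.55-fold with both agents (-1.83 ± 0.37, adjusted p = 0.00764), a call lost without PBS replicate 3, the array with the highest signal. VNN1, a pantetheinase, went from 910, 947 and 908 with PBS to 304, 507 and 480 and fell 2.19-fold, with -1.07 ± 0.21 under BMP2 and -1.16 ± 0.21 under DM.

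IGFBP3, a carrier of insulin-like growth factors, went from 18057, 14134 and 21893 with PBS to 10456, 10915 and 10438 with both agents and fell 1.67-fold (adjusted p = 0.00484), with no overlap. Upward on the same side were SAT1, the spermidine acetyltransferase, which went from 4026, 3924 and 5116 to 9173, 9014 and 8885 and rose 2.09-fold (adjusted p = 8.7e-05), and SLC35C1, the Golgi GDP-fucose transporter, which went from 147, 129 and 114 to 503, 350 and 321 and rose by 1.57 ± 0.28, or 0.98 without a call when its probe sets were averaged. SAT1 had 0.68 ± 0.13 with BMP2 and 0.73 ± 0.13 with DM.

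The genes called in DM against PBS numbered 453 (3.57% of genes tested), and with both agents 253 of them were called on the same side, 150 higher and 103 lower. On the other side were 0. Not called, with an interval within 1.5-fold of PBS, were 95 (21%), against 40.7% of all genes tested. The remaining 105 fell in neither class. These 253 are 55.8% of the genes called with DM and 48.7% of the 519 called with both agents, 2 comparisons that share the PBS arrays. Both agents against DM alone called only 6 genes (0.0473%) at the adjusted threshold: ID1, ID3, ID4, the metallothionein gene MT1H and APLP2 were higher, and RESF1 was lower. Of the 95 genes close to PBS, only ID1 and RESF1 were called in that comparison, so for the other 93 a move from the DM level was not shown. Without PBS replicate 1, 2 or 3 the 95 became 37, 27 or 23, and without DM replicate 1 or 2 it was 37 or 38; the 253 became 157 without PBS replicate 3 and 166 without DM replicate 1.

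**Figure D4:**
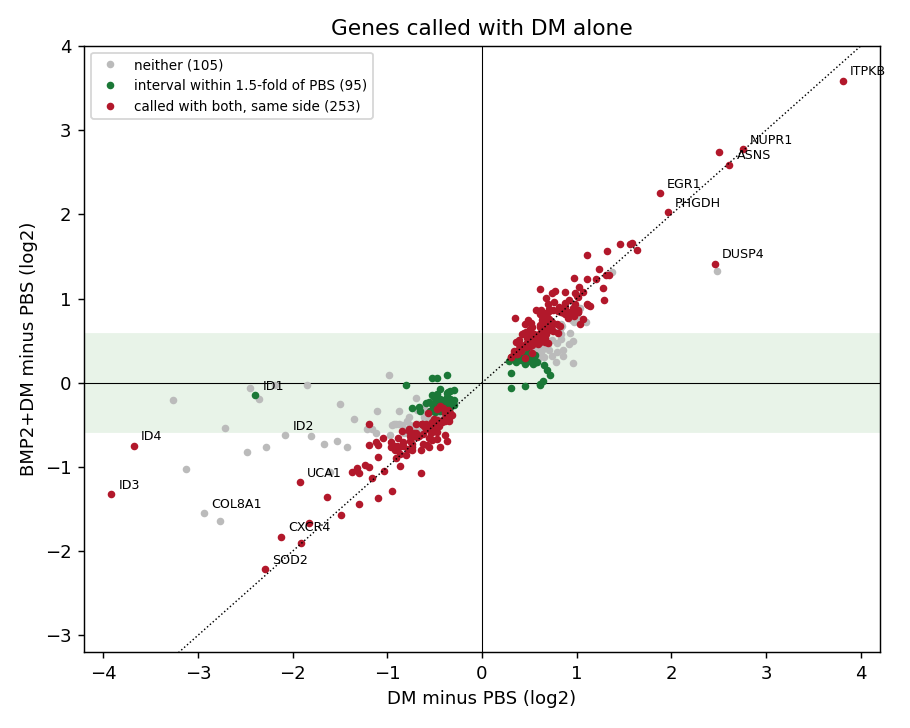
The 453 genes called with DM alone: log2 difference of DM from PBS on the horizontal axis and of BMP2+DM from PBS on the vertical axis, with the dotted line at equal change and the band within 1.5-fold of PBS; both axes share the PBS arrays. Most points lie near the dotted line, NUPR1 and ASNS among them, while ID1, ID3 and ID4 lie well above it; ITPKB, at the upper right, had a PBS signal below the filter.

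For the stress genes the level with both agents was that of DM. ASNS had 2.59 with both agents and 2.61 with DM, and the difference between these groups was -0.02 ± 0.13; NUPR1 had 2.77 and 2.75, with a difference of 0.02 ± 0.23, and ATF4 1.28 and 1.31, with -0.02 ± 0.11. BMP2 alone had given ASNS 0.34 ± 0.13, NUPR1 -0.43 ± 0.23 and ATF4 0.05 ± 0.11, none called. EGR1 had 2.25 with both agents and 1.88 with DM, and the difference of 0.38 ± 0.17 was not called. RESF1, a silencing factor of retroelements, had 14257, 14271 and 15269 with PBS, 20814, 23071 and 23067 with DM and 15434, 15560 and 12483 with both agents. Its PBS and BMP2+DM arrays overlapped (-0.02 ± 0.10), and it stood below DM by -0.63 ± 0.10 (adjusted p = 0.0158). The 2 RESF1 probe sets above the filter ran from -0.83 to -0.02 against PBS, and 0 of them were called. How close RESF1 came to PBS thus depends on the probe set.

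MT1H, a metallothionein, had 18498, 17374 and 20208 with PBS, 7399, 7589 and 9731 with DM and 12435, 13946 and 13615 with both agents. It thus lay between them, below PBS by 0.49 ± 0.11 on the log2 scale (adjusted p = 0.0124) and above DM by 0.70 ± 0.11 (adjusted p = 0.0114); the call against PBS was lost without PBS replicate 3 or BMP2+DM replicate 1, as was that of MT2A. Of 7 measured metallothionein list members 3 fell, MT1H, MT1X by 0.49 ± 0.09 and MT2A by 0.36 ± 0.08, and the median was -0.28. These probe sets may cross-hybridise between the near-identical copies.

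Of the 519 genes called with both agents, 260 were called with neither agent alone, 153 higher and 107 lower. This count says where the threshold fell and is no test of a difference between treatments: only 4 of the 519 were called in both agents against DM. Examples among the named genes are RASEF, which had -1.50 with both agents against -0.34 with BMP2 and -0.62 with DM, FN1, with -0.80 against 0.16 and -0.38, and the chaperone gene HSP90B1, with -0.76 against -0.37 and -0.31. HSP90B1 went from 17737, 15740 and 14699 with PBS to 10719, 9760 and 8090 and fell 1.69-fold (adjusted p = 0.0012), its groups apart.

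Some cell division genes were called lower, where 1.69% of all genes tested were called lower. In the limma fit 11 of 20 mitosis genes and 7 of 20 DNA replication genes had an unadjusted p under 0.05. Over all 12674 genes tested this number was 2367. Of the 20 mitosis genes 2 fell and none rose (median -0.23, with 16 of 20 values negative), NUSAP1 by 0.38 ± 0.08 and the kinesin gene KIF23 by 0.49 ± 0.12. Of 20 DNA replication genes 2 fell (median -0.20, 15 negative), UHRF1, which maintains DNA methylation, by 0.60 ± 0.09 and the licensing factor CDT1 by 0.62 ± 0.15. The calls of NUSAP1, KIF23 and CDT1 were lost with median centring, and each was lost without PBS replicate 1 and without BMP2+DM replicate 2, those of KIF23 and CDT1 also without PBS replicate 3 or BMP2+DM replicate 1, and that of CDT1 without BMP2+DM replicate 3. CCND1, cyclin D1, rose by 0.76 ± 0.19, a call lost without PBS replicate 1 or 3 or BMP2+DM replicate 2 or 3, without an intensity trend, and when its probe sets were averaged (0.32). The inhibitor genes CDKN1A and CDKN1B had 0.20 ± 0.22 and -0.14 ± 0.12.

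Most other lists showed few calls. Of 13 mesenchymal and epithelial markers KRT7, a simple-epithelial keratin, rose by 0.83 ± 0.14 and VIM, vimentin, fell by 0.44 ± 0.11; VIM lost its call without PBS replicate 2 or 3 and without any BMP2+DM array. Of 13 ER chaperone genes HERPUD1 rose by 0.51 ± 0.09 by its brightest probe set (-0.20 averaged over its probe sets) and HSP90B1 fell, and HSPA5, the main ER chaperone, had 0.05 ± 0.09. Of 14 sterol synthesis genes FDPS rose by 0.63 ± 0.08, and of 15 lysosome and autophagy genes SQSTM1, an autophagy receptor, rose by 0.44 ± 0.09. Of 9 NRF2 and glutathione genes TXNRD1 fell by 0.31 ± 0.08, a call lost when any PBS or BMP2+DM array was left out, and without BMP2 replicate 3 or DM replicate 1. By limma 0 of 9 cytosolic heat shock, 0 of 10 p53 and 0 of 12 interferon-stimulated genes were called, with 2, 1 and 0 at an unadjusted p under 0.05 and medians of -0.06, 0.08 and -0.03.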

How the data were processed

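RNA of 12 SK-OV-3 cultures was measured, each on 1 Affymetrix array. Per the labels' protocols, total RNA was extracted with Trizol and labelled as biotinylated cRNA. The deposited signals came from MAS5, per the submitters' processing notes (version not given in the sources used here), and the deposited values are linear intensities, 1 per probe set and array. The equal trimmed means (2% trimmed) show that the arrays were already scaled, and no further normalization was applied; detection calls and 3'/5' control probe sets were not used here.

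From these, signals were raised to a floor of 1 (396 values) and taken to log2. Of 54613 probe sets, 41091 had 1 gene symbol in the probe table, 1801 several and 11721 none; 0 symbols needed updating. The 41091 covered 19775 genes. Each gene was its probe set with the highest mean, kept if that mean exceeded the median over probe sets (signal 69.8), which left 12674. One limma 3.58.1 model (R 4.3.3) with an intensity trend covered the 12 arrays with 1 mean for each group (8 residual and 9.24 prior degrees of freedom), and all tests were two-sided with Benjamini-Hochberg adjustment over the 12674. Permuting 3 against 3 arrays allows no two-sided p under 0.1, so single genes got no permutation test. A gene was taken as close to PBS if not called and if the 95% interval of its difference lay within 1.5-fold. The code was tested on simulated data.

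The samples, the marker genes and the 25 gene lists were chosen with earlier results of these data known. The genes named are the 5 markers given with the comparison (ASNS, NUPR1, EGR1, SMAD9, MSX1), the measured BMP-SMAD targets, the 12 largest rises and 12 largest falls among called genes with non-overlapping arrays and a mean that passed the filter in both groups, up to 8 genes of each class (close to PBS, or still called) for BMP2 and for DM with the largest single-agent change, genes on opposite sides of PBS with 1 agent and with both, and up to 4 members of each list by smallest p; other list members, ERBB2, PAX8 and the marker genes of other cell types, VEGFA, APLP2 and RESF1 were named after their values were seen. Alternatives were quantile and median scaling, a log offset, other filters, other rules for probe sets, other variance models, other ranges around PBS, a replicate block, only the groups compared, and each array left out.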

Additional observations from a re-analysis of the deposited data

Results flagged for a closer look

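The response to BMP2 was not the same with and without DM for 10 of the genes described. The difference between the BMP2 effect in the presence of DM and the BMP2 effect in its absence was tested in the limma fit as an interaction, which called 15 of 12674 genes (0.118%). It was 3.30 on the log2 scale for CXCR4, 1.41 for NDRG1, 1.252 for STC1, 1.23 for IGFBP3, 1.22 for ID4, 1.21 for PDZK1IP1, 1.18 for ID1, 1.09 for BNIP3, 1.09 for PHLDA2 and -1.01 for CD24. CXCR4, NDRG1, STC1, IGFBP3, PDZK1IP1, BNIP3 and PHLDA2 had fallen with BMP2 alone. Of these, CXCR4 and IGFBP3 were also called lower with DM alone, at -2.12 and -1.20, and stayed below PBS with both agents. With DM alone NDRG1, PDZK1IP1 and BNIP3 were not called, and STC1 and PHLDA2 were called higher. ID1 and ID4 had risen with BMP2 alone and stood further above DM with both agents. CD24 had risen with BMP2 alone and had -0.33 ± 0.09 in both agents against DM. The interaction calls were not followed through the alternatives.

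Probe sets that the probe table names with several genes or with none carried signal outside the genes analysed. Of 4022 such probe sets above the filter, 93 were called by limma in BMP2+DM against PBS, 43 higher and 50 lower, adjusted over these probe sets. They have no single gene name and entered no count above.

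Groups of 3 arrays are too small for a test of a single outlying array, so none was made.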

How the results depend on the processing

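The number of genes called moved with the model and with single arrays. The 519 called genes became 221 with median centring, 258 when each gene's probe sets were averaged, 238 without an intensity trend, 73 at a 2-fold minimum, and 876 (386 higher, 490 lower) with every probe set above the filter. Genes called with BMP2 and again with both agents (26) became 15, 6 and 3 under the first 3 of these, and those called with BMP2 and close to PBS with both (33) became 11, 17 and 2. Genes called with DM and again with both (253) became 131, 106 and 126, and those called with DM and close to PBS with both (95) became 9, 30 and 25; this last count was 54 with every probe set above the filter and 41 with every probe set and no filter. With the narrower of the other ranges around PBS, 8 genes called with BMP2 and 10 called with DM were close to PBS, and with a 2-fold range 169 of those called with DM. Leaving out each array in turn gave 269 to 614 called genes, 12 to 32 and 13 to 40 for the BMP2 counts, and 157 to 296 and 23 to 118 for the DM counts. Of 81 named genes called in BMP2+DM against PBS, 29 kept the call in every alternative that tested them, 35 lost it with the mean of probe sets, 27 without a trend, 13 with median centring, 22 without at least 1 array and 0 with quantile normalization. The sign turned with the mean of probe sets for CCDC157 (-0.0742), ESCO2 (0.0433), HERPUD1 (-0.2000) and TXNRD1 (0.0789); the cause was not tested.

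The replicate numbers gave little sign of a pairing of the arrays. Deviations from the group means of equal-numbered PBS and BMP2+DM arrays correlated at 0.04, 0.05 and 0.02. Those of unequal-numbered arrays correlated at -0.038 to 0.003, so a weak pairing is left undecided. With the replicate number as a block, 479 genes were called and the other counts were 22, 22, 233 and 72; no named gene lost its call. The labels give no other batch. Dim genes near the filter, and probe sets of near-identical genes, are the least certain values.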
